A study of Mus musculus with 75 samples.

Results

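The sites that carried the cohesin subunit Rad21 in pro-metaphase were compared with those that carried it in ana/telophase, in mouse cells leaving mitosis. The compared regions are all 596 peaks of the deposited pro-metaphase Rad21 list and all 7995 peaks of the ana/telophase list. Together they are 8591 of the 246850 peaks in the 12 deposited CTCF and Rad21 lists. A peak was matched when 1 bp or more of it overlapped a peak of the other list, and an ana/telophase peak with no match is called gained. Both stages came from uninduced G1E-ER4 cells, a subline of the GATA1-null proerythroblast line G1E (strain 129, labelled erythroid), used without GATA1 induction in every group. Nocodazole, which blocks spindle assembly, was applied at 200 ng/ml during 7 to 8.5 h, and cells were sorted by flow cytometry. Pro-metaphase cells were taken at 0 min and ana/telophase cells at 25 min after the drug was washed out. Early, mid and late G1 cells followed at 60, 120 and 240 min, and asynchronous cells were profiled too.

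Cohesin is a ring-shaped complex that holds sister chromatids together and extrudes loops of chromatin, and Rad21 is the subunit that closes the ring. Most cohesin leaves the chromosome arms as cells enter mitosis, Rad21 is cleaved at anaphase, and cohesin has to be loaded again in the daughter nuclei. The zinc finger protein CTCF halts extruding cohesin, which is why the complex accumulates at CTCF sites and why CTCF sites lie at the ends of many chromatin loops.

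Rad21 had been profiled by chromatin immunoprecipitation and sequencing (ChIP-seq) in 2 samples per stage, 4 of the 75 samples of the series. CTCF had 3 pro-metaphase and 2 ana/telophase samples, and chromosome contacts (Hi-C) had 2 per stage. The authors deposited 1 merged list for the replicates of each target and stage, so no value below has a replicate spread and none has a replicate test. Intervals are 95% intervals and cover counting error only, and neighbouring peaks are not independent. Peak names say that replicates were merged and downsampled, but to what number of reads is not given. The lists give no read totals either, so depth is unknown. Fewer bound sites, fewer cells bound at each site and a shallower library therefore cannot be told apart. The erythroid label could not be checked against marker genes, since no expression values were used.

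In pro-metaphase few sites passed the peak caller, and most of those overlapped an ana/telophase peak. Of the 596 pro-metaphase peaks, 446 were found in the ana/telophase list (74.8%, interval 71.1 to 78.3). They fell on 439 ana/telophase peaks, which is 5.49% of 7995 (5.00 to 6.01). The remaining 7556 ana/telophase peaks were gained (94.5%). Both shares depend on the rule for a match and on the threshold. With 50% overlap of both peaks, 9.06% of pro-metaphase peaks were found and 0.675% of ana/telophase peaks matched. Width alone limits that rule: a peak of 70 bp, the pro-metaphase median, cannot cover 50% of one of 202 bp, the ana/telophase median. With summits within 100 bp, 69.8% were found and 5.17% matched. With limits on −log10 q (5), fold (5) or width (150 bp) in both lists, 100%, 79.0% and 100% were found and 0.284%, 3.07% and 0.604% matched. In 401 of the 447 matching pairs the pro-metaphase peak lay wholly inside the ana/telophase peak, and the median distance between the paired summits was 32 bp. The matched sites were among the strongest of the later stage. In the decile of ana/telophase Rad21 peaks with the lowest fold enrichment, 1.25% had a pro-metaphase match, against 24.4% in the highest decile. Fold enrichment is here the authors' value for how far the summit stood above local background. Its median was 9.82 (9.32 to 10.4) in the 439 matched peaks and 5.78 in the 7556 gained peaks.

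The pro-metaphase peaks were narrow. Their median width was 70 bp (66 to 74) and their smallest 50 bp, a width shared by 141 peaks. In the ana/telophase list the median was 202 bp (201 to 204) and the smallest 149 bp, a width shared by 712 peaks. Of the 596 pro-metaphase peaks, 553 (92.8%) were narrower than the narrowest ana/telophase peak. Each list thus had its own smallest width at which many peaks lay, and the settings behind these widths are not given in the sources used. Whether the difference in width comes from the calling or from the binding was not tested. The pro-metaphase list also held weaker evidence. The smallest −log10 p was 4.09 in pro-metaphase and 4.13 in ana/telophase, but after the caller's correction for multiple testing 375 pro-metaphase peaks (62.9%) had a −log10 q under 1.3, while the smallest in the ana/telophase list was 1.34. The 4 commonest fold values were shared by 225 of the 596 peaks (37.8%), against 12.6% of ana/telophase peaks for the 4 commonest there. No pro-metaphase peak lay on the X chromosome, where the ana/telophase list had 90.

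**Figure D1:**
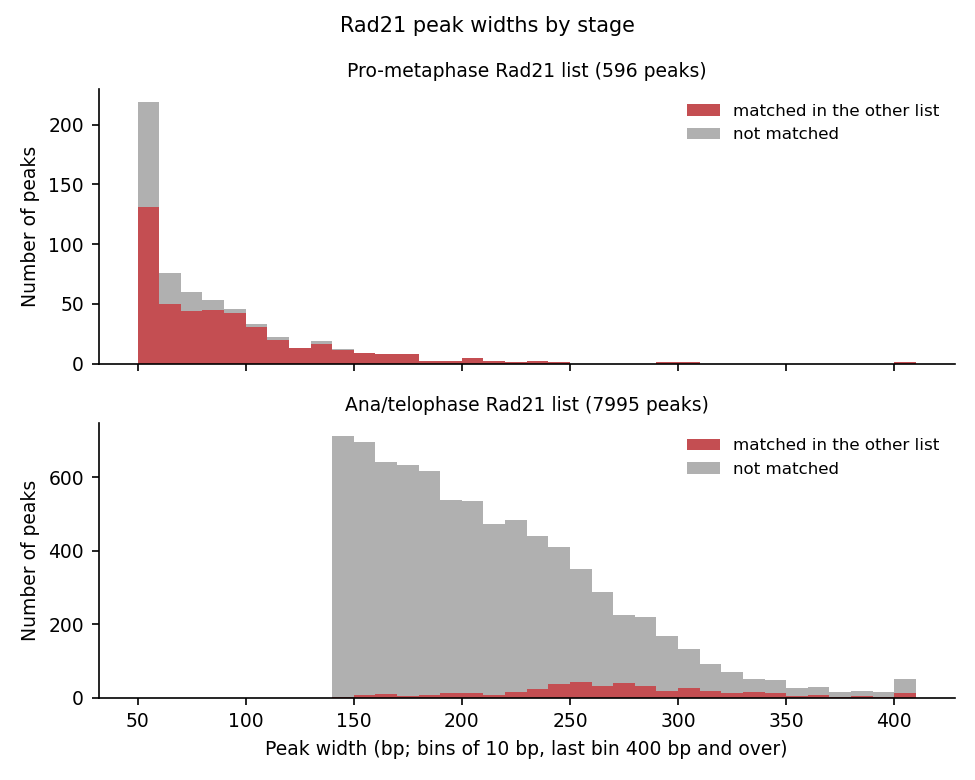
Number of Rad21 peaks (y axis) by peak width in bp (x axis, bins of 10 bp, the last bin holding 400 bp and over) in pro-metaphase (upper panel) and ana/telophase (lower panel). Red bars are peaks matched in the other list and grey bars are unmatched peaks; the pro-metaphase widths start at 50 bp and the ana/telophase widths at 149 bp.

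Narrow and weakly supported pro-metaphase peaks separated by whether a CTCF peak of any stage overlapped them. This grouping uses the CTCF lists of ana/telophase and later, so it is not a property of pro-metaphase alone. A CTCF peak of some stage overlapped 482 of the 596, and 445 of these (92.3%, 89.6 to 94.5) were found again in ana/telophase. Of the 114 with no CTCF peak in any of the 6 CTCF lists, 1 was found again (0.877%). The contrast was as wide among peaks with a −log10 q under 1.3, where 264 of 286 with CTCF and 1 of 89 without CTCF were found. It was also present at the smallest width, where 74 of 87 peaks of 50 bp with CTCF and 1 of 54 without were found. The 43 pro-metaphase peaks of 150 bp or more all lay on CTCF and were all found again. In pro-metaphase itself, 372 of the 596 peaks (62.4%) overlapped pro-metaphase CTCF.

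Individual regions show both ends of this range. All positions are in build mm9, and genes are not named because no annotation of that build was used. The matched site with the highest ana/telophase fold was chr2:153412221-153412627. Its Rad21 fold was 7.66 in pro-metaphase and 31.7 in ana/telophase; the early, mid and late G1 lists gave 33.2, 38.9 and 26.7. Its CTCF fold was 31.2 in pro-metaphase and 54.5 in ana/telophase, and it lay in an ana/telophase loop anchor. Fold values of different stages come from lists made separately and are set side by side, not compared. The next matched sites, chr5:124534844-124535216 and chr15:82067037-82067370, both had an ana/telophase Rad21 fold of 23.4 and lay within 20 kb of a domain boundary. The remaining 2 were chr1:167710645-167710979, with a fold of 23.1, and chr1:168084295-168084751, with 23.0. All 5 had CTCF and Rad21 peaks in every list.

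The widest pro-metaphase peak departed from the rest. It covered 1697 bp at chr8:108204671-108206367, with a Rad21 fold of 16.5. The fold there was 5.49 in ana/telophase and 5.46 in early G1, then 63.7 in mid G1, 45.6 in late G1 and 63.7 in asynchronous cells. CTCF was called there in ana/telophase alone, at a fold of 6.94. The other 4 of the 5 widest were 237 to 309 bp wide and lay on CTCF peaks of all 6 lists. Among the pro-metaphase peaks not found in ana/telophase, the 5 with the highest folds had 6.30 to 6.57. The strongest, chr16:8795312-8795363, was called again only in asynchronous cells. chr1:12854282-12854376 and chr1:188961486-188961536 had no Rad21 call in ana/telophase but had one in each G1 list, and CTCF was called there from ana/telophase on. chr1:85239487-85239536 and chr16:3112108-3112157 had no peak in any other Rad21 list or in any CTCF list.

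The largest class of gained Rad21 peaks lay where CTCF had already been called in pro-metaphase. Of the 7556 gained peaks, 4189 (55.4%, 54.3 to 56.6) lay on a pro-metaphase CTCF peak, and every one of these also had CTCF in ana/telophase. A further 2354 (31.2%, 30.1 to 32.2) lay on CTCF first called in ana/telophase. Another 150 (1.99%) had CTCF in later or asynchronous lists only. The remaining 863 (11.4%, 10.7 to 12.2) had no CTCF peak in any list. Gained peaks without ana/telophase CTCF, 13.4% in all, were 4.22% with a −log10 q of at least 5, 2.73% with a fold of at least 5 and 45.9% when 50% overlap was required. Among gained peaks on ana/telophase CTCF, 64.0% had pro-metaphase CTCF, against 34.8% of all 33127 ana/telophase CTCF peaks. The 439 matched peaks had pro-metaphase CTCF more often still, at 81.1% (77.1 to 84.7), and 99.1% had ana/telophase CTCF. Over all gained peaks, median Rad21 fold was lower in the same order. It was 6.42 (6.36 to 6.56) on CTCF present since pro-metaphase and 5.78 (5.68 to 5.78) on new CTCF. On CTCF of other lists it was 4.78 (4.62 to 5.01), and without CTCF 4.05 (4.05 to 4.19). Within deciles of ana/telophase CTCF fold, new CTCF had the higher median from the fourth decile to the strongest. In the ninth decile it was 6.77, against 6.36 on CTCF present since pro-metaphase. In the eighth it was 6.24 against 5.80. The third decile went the other way, with 5.15 against 6.56, the latter over 4 peaks. These decile medians have no intervals and leave out the matched peaks. Of those, 356 lay on CTCF present since pro-metaphase, with a median fold of 10.4, and 79 on new CTCF, with 8.02. Decile medians with matched peaks included were not computed.

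The 5 strongest gained peaks on pro-metaphase CTCF had ana/telophase Rad21 folds of 24.0 to 31.1. The first, chr5:65204720-65205093, had a Rad21 fold of 31.1 in ana/telophase and of 36.5, 24.1 and 27.1 in early, mid and late G1, on CTCF of 26.8 in pro-metaphase and 52.4 in ana/telophase. The second, chr15:102817868-102818215, had a Rad21 fold of 25.9 in ana/telophase and 19.2 in early G1. Both lay in ana/telophase loop anchors. On new CTCF the strongest was chr15:61820557-61821668, which was 1112 bp wide. It had a Rad21 fold of 23.1 in ana/telophase and 8.51 in early G1 and no Rad21 call later, and a CTCF fold of 49.2 in ana/telophase and no CTCF call in any other list. The next on new CTCF, chr6:70702375-70702777, had a Rad21 fold of 22.5, and both proteins were called there in every later list. The 5 strongest without CTCF had Rad21 folds of 5.78 to 6.07, led by chr1:110637568-110637742 and chr17:62360612-62360781, and no Rad21 or CTCF peak of any other list overlapped them.

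How strong CTCF was in ana/telophase tracked the presence of new Rad21 closely. A gained Rad21 peak overlapped 6526 of the 33127 ana/telophase CTCF peaks (19.7%). When these CTCF peaks were ranked by fold enrichment, the share was 2.75% (2.22 to 3.36) in the weakest decile, 11.1% in the fifth decile, 31.8% in the eighth and 56.5% (54.8 to 58.2) in the strongest. The strongest and weakest deciles differed by 53.8 percentage points (52.0 to 55.5). Across 6543 gained peaks on ana/telophase CTCF, Rad21 fold and CTCF fold had a Spearman rank correlation of 0.355, a description over sites of the same cells and stage. With pro-metaphase CTCF fold the correlation was 0.09 over 4189 peaks.

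Prior CTCF went with more new Rad21 over all CTCF sites but not among sites of equal ana/telophase rank. Of the 11541 ana/telophase CTCF peaks already called in pro-metaphase, 36.2% had a gained Rad21 peak, against 10.9% of the 21586 new ones, a difference of 25.4 points (24.4 to 26.4). Prior CTCF was itself concentrated in the strong deciles, from 1.09% of the weakest to 97.4% of the strongest. Within deciles, averaged with equal weight, the difference was 0.139 points (−1.30 to 2.40). The interval of a single decile excluded 0 only in the ninth, where 39.9% of sites with and 45.1% of sites without prior CTCF had gained Rad21. Ranked by −log10 p instead of fold, the averaged difference was −3.25 points (−4.90 to −0.456), that is, lower at sites with prior CTCF. A CTCF site with matched Rad21 cannot gain it, and such sites were 3.08% of those with and 0.366% of those without prior CTCF. With these sites left out, the averaged difference was 0.443 points (−1.02 to 2.74) by fold and −3.02 points (−4.70 to −0.200) by −log10 p.

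**Figure D2:**
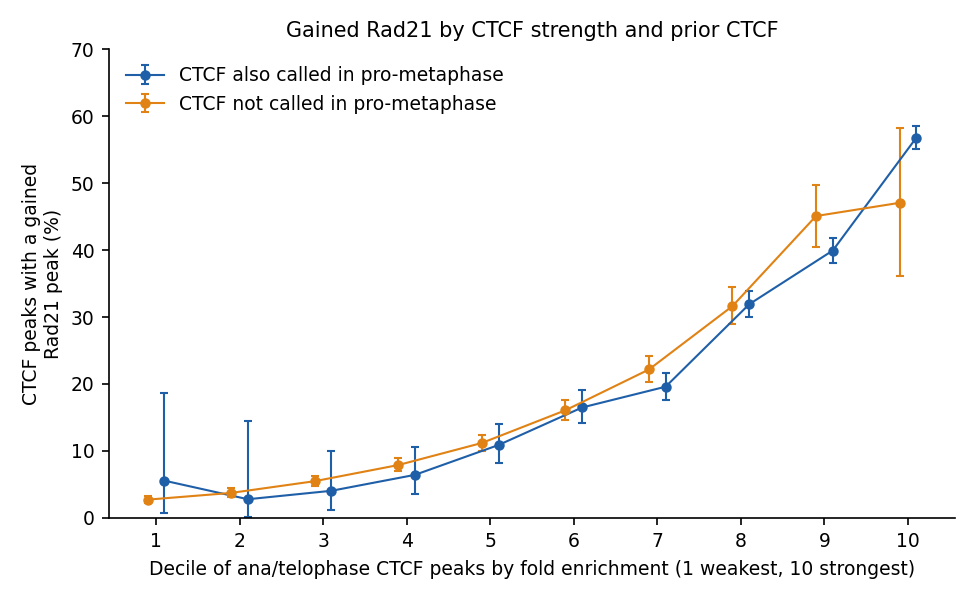
Share of ana/telophase CTCF peaks with a gained Rad21 peak (y axis, percent) by decile of CTCF fold enrichment (x axis, 1 weakest to 10 strongest), for peaks with (blue) and without (orange) a pro-metaphase CTCF peak. Points are shares with exact 95% binomial intervals for counting error; both curves rise together, to 56.8% and 47.1% in the strongest decile, where the orange point rests on 85 peaks.

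Among the 11541 retained CTCF sites with strong ana/telophase CTCF, those stronger in pro-metaphase had gained Rad21 less often. Over all retained and lost pro-metaphase CTCF peaks, the share with gained Rad21 rose from 30.0% in the weakest to 47.9% in the strongest decile of pro-metaphase fold. The retained sites were then sorted into 5 equal groups by ana/telophase CTCF fold, and each of these into 3 equal groups by pro-metaphase CTCF fold. In the group with the strongest ana/telophase CTCF, gained Rad21 was present at 63.1% of sites with the weakest, 61.8% with intermediate and 53.9% with the strongest pro-metaphase CTCF. Strongest minus weakest was −9.17 points there (−14.0 to −4.25) and −10.2 points (−15.1 to −5.21) in the next group. In the 3 groups with weaker ana/telophase CTCF it was −2.91, 0.357 and −3.79 points, and the interval excluded 0 in the last of these, the weakest. Without the 354 retained sites that had matched and no gained Rad21, the differences in the strongest and the next group were −10.9 points (−15.8 to −5.93) and −10.7 points (−15.8 to −5.65).

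Strong CTCF did not always carry Rad21. At chr5:116009141-116009583 the CTCF fold was 13.1 in pro-metaphase, 68.5 in ana/telophase and 65.4 in early G1, and no Rad21 list had a peak. The site lay within 20 kb of an ana/telophase boundary and in a loop anchor. At the next 4 strongest CTCF sites without ana/telophase Rad21, with CTCF folds of 66.6 to 67.8, Rad21 was called in mid and late G1. It was already called in early G1 at chr11:95120230-95120885 (fold 5.21) and chr9:62695411-62696019 (2.86). chr4:137838597-137839258, for example, had a late G1 Rad21 fold of 6.01, and chr11:95120230-95120885 one of 11.7.

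Later calls of gained peaks differed with CTCF. Of all 7995 ana/telophase Rad21 peaks, the early, mid and late G1 lists held 72.2%, 84.3% and 86.4%, and the asynchronous list 81.4%. Gained peaks on CTCF present since pro-metaphase were found at 82.0% in early G1 (80.8 to 83.2) and 97.3% in late G1, and those on new CTCF at 77.1% (75.3 to 78.7) and 95.1%. Of the 863 gained peaks without CTCF in any list, 0 were found in early G1, which allows a share of up to 0.348%. In late G1, 7 were found (0.811%). In all, 855 of the 863 (99.1%) were in no G1 list. This class was defined with the G1 CTCF lists too, so its later Rad21 calls are not independent of its definition. The 150 gained peaks with CTCF in other lists only were kept apart. Of those, 61.3% were found in early G1 and 98.0% in late G1. The matched peaks were found at 98.9% in early G1 and 99.8% in late G1. The contrast was also present among weak peaks: in the weakest quartile of gained peaks by Rad21 fold, 731 of 1185 with CTCF in some list (61.7%) were found in early G1, against 0 of 704 without. Early G1 held fewer of the sites on CTCF than the later lists did, but its list was also shorter, with 8694 Rad21 peaks against 15762 in mid G1 and 18958 in late G1. Among gained peaks on ana/telophase CTCF, 1117 of 6543 (17.1%) were not called in early G1 and were called again in mid or late G1.

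**Figure D3:**
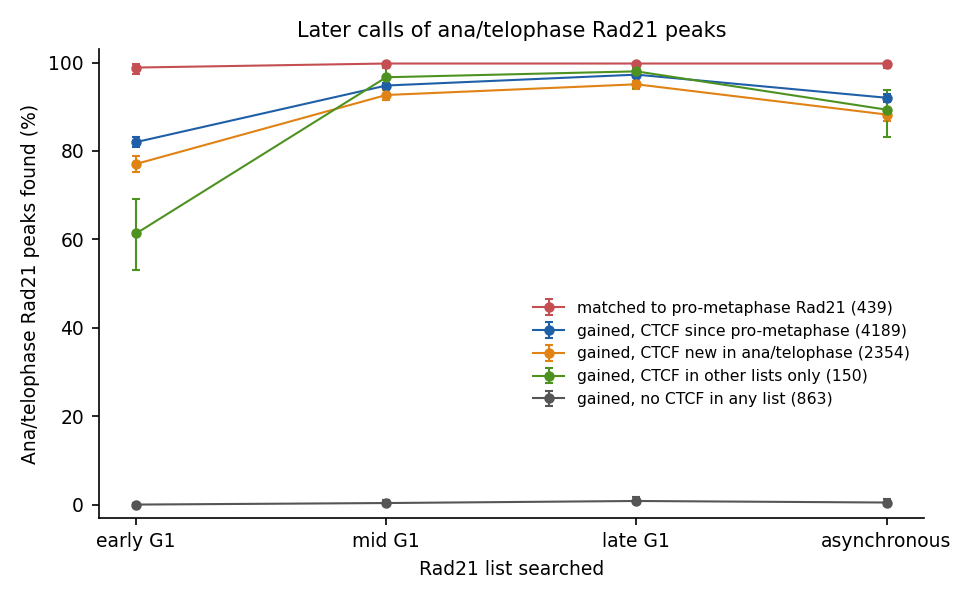
Share of ana/telophase Rad21 peaks found again (y axis, percent) in the early, mid and late G1 and asynchronous Rad21 lists (x axis), for matched peaks and 4 classes of gained peaks by CTCF. Points are shares with exact 95% binomial intervals. Every class with CTCF reaches at least 95.1% in late G1. The class defined by no CTCF in any list, the G1 lists included, stays between 0 and 0.811%.

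A class of 150 gained peaks had CTCF in G1 or asynchronous lists only. That Rad21 was listed before CTCF at these sites follows from this definition, as does the presence of CTCF in some other list. The order of the calls is therefore not a result about binding. The nearest ana/telophase CTCF summit was a median of 15.1 kb away, and 2 of the 150 had one within 1 kb. CTCF was called at 121 of them in early G1 (80.7%), and the mid and late G1 lists had it at 147 (98.0%) and 145 (96.7%). The early G1 CTCF peaks there were weak, with a median fold of 11.4 against 19.2 for the whole early G1 list, and 112 of the 121 were in the weaker part of that list, below its median. Rad21 itself was found at 92 of the 150 in early G1 and 147 in late G1. Whether CTCF was below the calling threshold at these sites in ana/telophase was not tested.

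Rad21 summits sat close to CTCF summits, with a side that differed between loop ends. The median absolute distance was 20 bp over 6543 gained peaks on ana/telophase CTCF. It was 19 bp (19 to 20) on CTCF present since pro-metaphase and 22 bp (21 to 22) on new CTCF. At upstream anchors of ana/telophase loops, the ends with the lower coordinate, the Rad21 summit was at a higher coordinate than the CTCF summit, and so on the side of the loop, in 201 of 298 cases (67.4%, 61.8 to 72.7). The median offset there was 11 bp (8 to 15). At downstream anchors it was at a higher coordinate in 119 of 346 cases (34.4%, 29.4 to 39.7), with a median offset of −11 bp (−14 to −7), again on the side of the loop. Away from loop anchors the share was 47.7% (46.4 to 49.0) of 5861 and the median offset −1 bp.

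The same displacement was present in ana/telophase Rad21 at sites whose loops were called only later. Among gained peaks outside ana/telophase anchors, the Rad21 summit was at a higher coordinate than the CTCF summit in 68.7% (66.5 to 70.9) of 1816 peaks in upstream and 27.1% (25.1 to 29.2) of 1808 peaks in downstream late G1 anchors. Median offsets were 13 bp and −14 bp. Stripes, which are lines of contact that run from 1 anchor, showed a clear offset for 1 of their directions. At vertical stripe anchors the share was 30.5% (20.8 to 41.6) of 82, with a median of −14 bp, and at horizontal stripe anchors it was 57.6% (44.1 to 70.4) of 59, an interval that includes an even split. Sites near a domain start alone (45.3%) or a domain end alone (49.7%) had intervals that include an even split too.

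**Figure D4:**
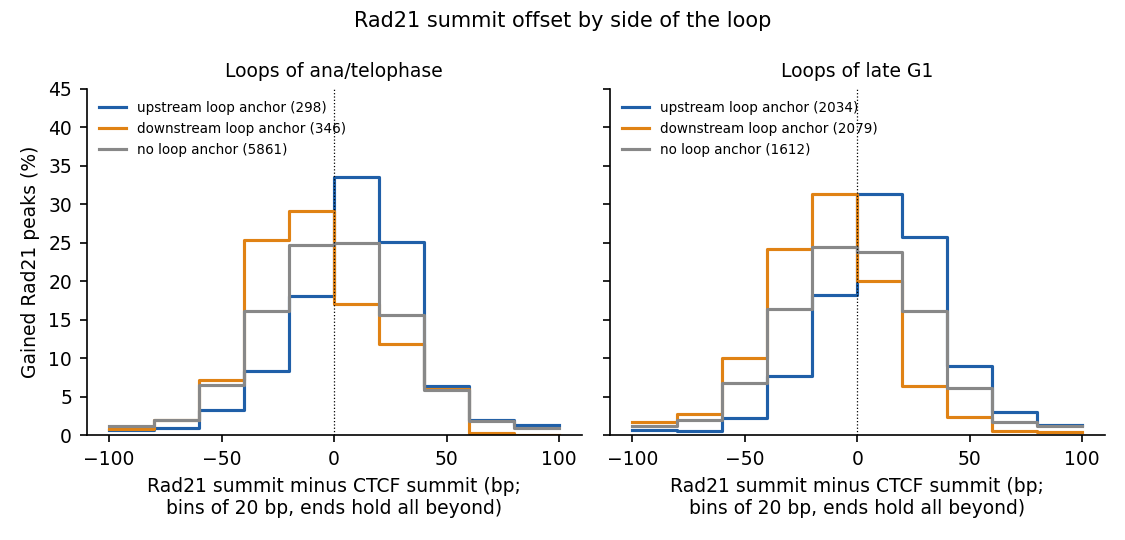
Distribution of the offset of the Rad21 summit from the CTCF summit (x axis, bp, bins of 20 bp, end bins holding all values beyond) as percent of gained Rad21 peaks (y axis), at upstream anchors (blue), downstream anchors (orange) and outside anchors (grey) of ana/telophase loops (left) and late G1 loops (right). Numbers in brackets are peaks; the blue curve is shifted to positive and the orange curve to negative offsets, with medians of 11 and −11 bp for ana/telophase loops and 13 and −14 bp for late G1 loops.

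Gained peaks lay near folding features of ana/telophase more often than CTCF sites in general. A domain boundary lay within 20 kb of 25.7% of the 7556 gained peaks, a loop anchor overlapped 9.25% and a stripe anchor 1.88%. Over all 33127 ana/telophase CTCF peaks these shares were 21.9%, 6.25% and 1.07%. For the 439 matched peaks they were higher, at 34.6% (30.2 to 39.3), 19.1% (15.6 to 23.1) and 4.56% (2.80 to 6.95). For the 863 gained peaks without CTCF they were lower, at 10.5% (8.58 to 12.8), 1.62% and 0.116%. Gained peaks on CTCF present since pro-metaphase had 29.3% near a boundary and 11.1% in a loop anchor, and those on new CTCF 25.0% and 9.22%.

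Gained Rad21 was more frequent on strong CTCF, so CTCF peaks with and without gained Rad21 were compared within deciles of CTCF rank. Averaged over deciles, those with gained Rad21 were near a boundary more often by 4.42 points (2.89 to 6.22), in a loop anchor by 3.72 points (2.84 to 5.03) and in a stripe anchor by 0.890 points (0.554 to 1.73). The difference was positive in 9, 9 and 10 of the 10 deciles. In percentage points it was larger for loops called later, but the ratio of the shares was not. Over all CTCF peaks the share in an ana/telophase loop anchor was 2.00 times as high with gained Rad21 as without. Outside ana/telophase anchors, an early G1 loop anchor overlapped 57.2% of 5845 CTCF peaks with and 29.2% of 25210 without gained Rad21, a ratio of 1.96, and for late G1 anchors the ratio was 1.76. Within deciles that difference averaged 23.6 points (21.6 to 25.7) for early G1 anchors and 27.9 points (25.9 to 29.6) for late G1 anchors.

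Seen from the folding features, gained Rad21 was present at 26.1% of the 7414 ana/telophase boundaries within 20 kb. It was present at 32.4% (30.6 to 34.3) of the 2538 boundaries already called in pro-metaphase and at 22.8% (21.7 to 24.1) of the 4876 new ones. Of the new boundaries, 44.2% had neither CTCF nor Rad21 within that distance, against 31.7% of the earlier ones. Of the 908 ana/telophase loops, 162 (17.8%) had gained Rad21 in both anchors, 321 (35.4%) in 1 anchor and 425 (46.8%) in neither. The intervals of loop strength overlapped: the median observed/expected contact ratio was 3.41 (3.12 to 3.50) with both, 3.32 (3.18 to 3.43) with 1 and 3.30 (3.16 to 3.52) with none. They differed in size, with medians of 120 kb (100 to 130), 110 kb (100 to 130) and 80 kb (80 to 100). Among the 460 loops with CTCF in both anchors the median was 120 kb in each class. A pro-metaphase loop matched 71 of the 425 loops without gained Rad21 and 3 of the 162 with it in both anchors. These classes also differed in CTCF, which was in both anchors of 91 of the 425 and 161 of the 162. Pro-metaphase matches were not counted among loops with CTCF in both anchors.

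Gained Rad21 was present in 115 of the 307 stripe anchors (37.5%, 32.0 to 43.1), 66 of 157 vertical and 49 of 150 horizontal ones. Their median stripe strength, observed over expected contact, was 2.67 (2.60 to 2.80), against 2.81 (2.70 to 2.95) at anchors with CTCF but without gained Rad21 and 2.93 (2.75 to 3.02) at anchors with neither. The strongest loop with gained Rad21 in both anchors had an observed/expected ratio of 8.09 and spanned 260 kb on chromosome 4, from the anchor chr4:88510001-88530000 to chr4:88760001-88780000. Its anchors held gained Rad21 peaks with folds of 6.77 and 4.21, both on CTCF present since pro-metaphase. The fourth strongest joined chr15:102790001-102830000 to chr15:102990001-103010000 at a ratio of 6.74. Its upstream anchor held the second strongest gained peak named above, and its downstream anchor held 4 gained peaks, the strongest with a fold of 13.6.

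Along the chromosomes, neighbouring gained peaks were a median of 122.8 kb apart (117.0 to 127.2), with an interquartile range of 41.8 to 336.8 kb. Gained peaks on ana/telophase CTCF were 124.0 kb apart (117.8 to 130.2), and the same number of the strongest CTCF peaks 109.3 kb (102.5 to 115.1). All ana/telophase CTCF peaks were 25.5 kb apart. Distances under 10 kb made up 8.96% of gaps between gained peaks and 11.5% of those between the strongest CTCF peaks. Isolated CTCF sites had gained Rad21 less often, but they were also weaker. Of CTCF peaks with the next CTCF summit 2 to 5 kb away, 21.6% had gained Rad21, and of those 100 kb or more away 14.7% (13.3 to 16.3) did, and their median CTCF folds were 21.6 and 15.4. Among the strongest 3 deciles of CTCF the shares were 44.6% (42.4 to 46.9) and 41.4% (36.4 to 46.5). The 2 to 5 kb group had the highest share of all distance groups. Where the next CTCF summit was under 2 kb away, 20.1% of all CTCF peaks had gained Rad21. In the strongest 3 deciles that share was 42.1% (39.7 to 44.5).

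Chromosome 1 stood apart for Rad21 without CTCF. It held 313 of the 863 gained peaks without CTCF (36.3%, 33.1 to 39.6) and 37 of the 114 pro-metaphase peaks without CTCF (32.5%, 24.0 to 41.9), but 7.00% of ana/telophase CTCF peaks. On chromosome 1, 33.5% of gained peaks lacked CTCF in all lists, against 3.83 to 22.2% on chromosomes 2 to 19, where chromosome 14 had the highest share, and 0 of 90 on X. Rad21 on CTCF was also more frequent there, with gained Rad21 at 25.8% (24.0 to 27.6) of its CTCF peaks, against 14.5 to 23.0% on chromosomes 2 to 19 and 11.2% on X. Chromosome 1 was also highest in the other stages, each set against CTCF peaks of its own stage. Rad21 overlapped 31.2% of chromosome 1 CTCF peaks in early G1, against at most 29.5% on any of chromosomes 2 to 19, and 47.0% against 45.4% in mid G1. In late G1 the values were 60.1% against 57.7%, in asynchronous cells 46.0% against 44.5% and in pro-metaphase 7.81% against 5.43%. The chromosome's share of the whole Rad21 list was 9.24% in early G1 and 8.25% in late G1. Input reads and copy number of chromosome 1 were not analysed here, and what sets it apart was not tested. Without chromosome 1, gained peaks lacking ana/telophase CTCF made up 10.2% of gained peaks instead of 13.4%, those on pro-metaphase CTCF 57.6% instead of 55.4%, and the median distance between gained peaks without CTCF rose from 1123 to 2375 kb.

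**Figure D5:**
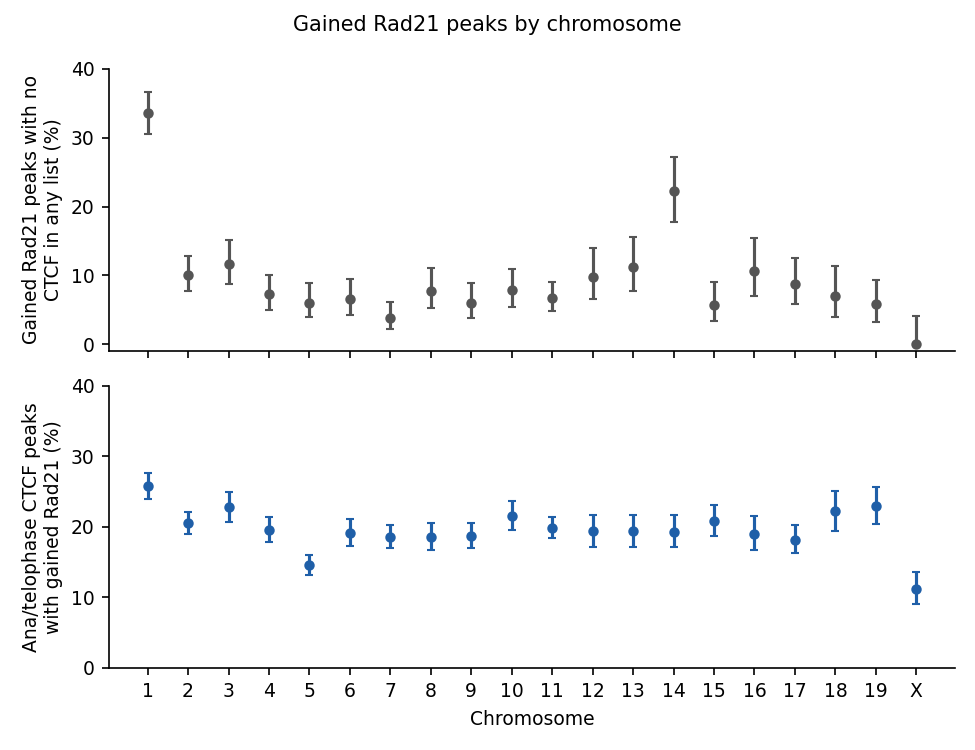
Share of gained Rad21 peaks with no CTCF peak in any list (upper panel, percent) and share of ana/telophase CTCF peaks with a gained Rad21 peak (lower panel, percent) on each chromosome (x axis). Points are shares with exact 95% binomial intervals; chromosome 1 is highest in both panels, at 33.5% and 25.8%, followed in the upper panel by chromosome 14 at 22.2%.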

How the data were processed

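Members, classes and lists were chosen with earlier results of these data known. For ChIP-seq the submitters' processing notes name MACS2 2.1.0, bedtools 2.27.1, Bowtie 0.12.7 and SAMtools 1.7, and for Hi-C they name HiC-Pro and Bowtie2, all in build mm9. The sources used here name no caller for domains, loops or stripes. Peak names in the deposited files say that replicates were merged and downsampled into each list. Each peak has a deposited fold enrichment (a ratio), a deposited −log10 p and −log10 q, and a deposited score of 10 times −log10 p without decimals. Loops have an observed and an expected contact signal and a p-value, and stripes have a strength ratio, per the file headers. The normalization behind the contact values is unknown here.

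Peaks, anchors and boundaries were intersected in Python 3.11.15 (SciPy 1.17.1, pandas 2.3.3, NumPy 2.4.6; plots: Matplotlib 3.10.9). Matching and intervals were tested on simulated data against bedtools 2.31.1 and passed 6 of 6 tests. Peaks matched at 1 bp or more. Boundaries were distinct domain starts and ends, taken as near within 20 kb. Deciles were cut from the ana/telophase CTCF fold (or the fold named). Share intervals are exact binomial, differences use Newcombe's method, decile averages combine those, and medians use order statistics. A share of 0 is given with the limit of 3 counts. Regions were named by rule: the 5 strongest of each class, the 5 widest pro-metaphase peaks, the 5 strongest CTCF peaks without Rad21, loops by observed/expected ratio and the 3 megabase windows with most gained peaks; the text describes some of each. No p-value was computed. Reference sequence of build mm9 was not used here.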

Additional observations from a re-analysis of the deposited data

How the results depend on the processing

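Of 65 alternatives to 13 results, 32 gave a value inside the counting interval of the main value and 33 a value outside it. Of these, 0 reversed a value whose interval excluded 0. A reversal meant a change of sign, which a share or a median distance cannot show. The prior-CTCF difference, whose interval included 0, was not counted, though its sign changed under some alternatives. No paired analysis was possible because the pooled lists hold no replicates, and no replicate could be left out for the same reason. With 50% overlap of both peaks, 0.675% of ana/telophase peaks were matched and 9.06% of pro-metaphase peaks found. Of gained peaks, 49.1% then lay on pro-metaphase CTCF and 45.9% lacked ana/telophase CTCF. The median Rad21 width was 70 bp in pro-metaphase and 202 bp in ana/telophase, and peaks of these widths cannot share 50% of both. With summits within 100 bp, 69.8% of pro-metaphase peaks were found and 14.4% of gained peaks lacked CTCF. With −log10 q of at least 5, 18 pro-metaphase and 6349 ana/telophase peaks were left, with a fold of at least 5 214 and 5511, and with a width of at least 150 bp 43 and 7283. In that order, 0.284, 3.07 and 0.604% were matched, 100, 79.0 and 100% of pro-metaphase peaks found, 64.0, 65.5 and 59.4% on pro-metaphase CTCF, and 4.22, 2.73 and 9.71% without ana/telophase CTCF. The within-decile difference with prior CTCF was −3.25 points by −log10 p rank; the q, fold and width limits gave 1.38, −1.03 and 1.11. Gaps had a median of 131.9 kb under the q limit and 153.7 kb under the fold limit. The boundary difference was 2.44 points at 10 kb, 5.26 at 40 kb and 3.27 with outermost domains, the loop difference 5.04 and the stripe difference 1.66 points with anchors widened by 10 kb. The cause of these moves was not tested.

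Added after seeing the data were the lists without chromosome 1, deciles with enough peaks of both kinds, CTCF peaks with matched Rad21 left out, and every alternative for summit offset, the chromosome 1 share and early G1 anchors. Without chromosome 1, 77.8% of pro-metaphase peaks were found, 57.6% of gained peaks lay on pro-metaphase CTCF, 10.2% lacked ana/telophase CTCF and gaps had a median of 126.4 kb. Deciles with at least 100 peaks of both kinds gave a prior-CTCF difference of −1.47 points. With matched Rad21 left out it was 0.443 points by fold rank and −3.02 by −log10 p rank, and the strongest and weakest deciles differed by 57.0 points. The upstream minus downstream share of summits was 38.9, 40.5 and 36.8 points under the q, fold and width limits, against 33.1. The chromosome 1 share was 39.7% under the width limit. The early G1 anchor difference was 28.1, 28.1 and 26.1 points. Unknown depth limits every count.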

Other observations

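Gained peaks were more frequent relative to CTCF where CTCF was sparse, while CTCF peaks there carried them less often. In 1 Mb windows with 0 to 4 ana/telophase CTCF peaks there were 468 gained peaks, or 33.0 per 100 CTCF peaks, and 223 of the 468 had no CTCF in any list. In windows with 30 or more CTCF peaks there were 2408, or 21.7 per 100, of which 61 had none. The share of CTCF peaks with a gained Rad21 peak was 16.1% (14.3 to 18.2) in the first kind of window and 21.0% (20.2 to 21.7) in the second. These shares were not compared within deciles of CTCF fold, and isolated CTCF sites were weaker, as given above. The windows with most gained peaks were chr10:80000001-81000000 with 27, chr10:79000001-80000000 with 23 and chr17:35000001-36000000 with 23, where 85, 89 and 75 ana/telophase CTCF peaks were called.

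Neighbouring CTCF sites were bound by gained Rad21 together slightly more often. The next CTCF peak along the chromosome also had gained Rad21 in 22.8% (21.7 to 23.8) of 6513 cases where the first had it, and in 18.96% (18.5 to 19.4) of 26594 where it did not. Among neighbours that were both in the strongest 3 deciles of CTCF the shares were 45.8% (43.1 to 48.5) and 41.6% (39.4 to 43.8). Those intervals overlapped. For such pairs 100 to 200 kb apart the order was reversed (33.3% and 41.8%), but not at the other distances.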
